A study of Mus musculus with 8 samples.

Results

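The genes described here are 6 long noncoding RNAs that act in the nucleus or lie in imprinted regions, *Malat1*, *Neat1*, *Pvt1*, *Kcnq1ot1*, *H19* and *Meg3*. They were chosen by gene symbol, not by their values, from the 55414 genes of the expression table, of which 9657 are annotated as lncRNA, and each symbol matched 1 gene. Of the 6, 4 were above 0 in at least 1 library, 3 were abundant enough for the test across genes, and 2 were listed at 0 in all 8 libraries.

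RNA came from B16F10, a melanoma line of the mouse grown in culture, in 4 groups of 2 libraries, each taken after 24 h at a fixed oxygen concentration. WT cells and CypD KO cells, in which the *Ppif* gene for cyclophilin D was disrupted by CRISPR/Cas9 and clones were selected with puromycin, were kept at 21% oxygen. Control cells with a stable empty pcDNA vector, and CypD OE cells with a stable vector for cyclophilin D, were selected with G418 and kept at 1% oxygen. Total RNA was sequenced after removal of ribosomal RNA, a preparation that keeps transcripts without a poly(A) tail, and values are TPM, the authors' estimate of relative transcript abundance per length. *Ppif* was at 50.7 and 49.99 TPM in WT against 10.4 and 12.1 TPM in CypD KO libraries. It was at 44.6 and 42.3 TPM in Control compared with 50.3 and 49.3 TPM for CypD OE, a small difference, so the libraries labelled CypD OE are called CypD OE after their label alone. Oxygen and the vector line change together between the pairs of groups and cannot be told apart. CypD KO, Control and CypD OE cells came from selected clones, so differences of clone or selection cannot be told apart from those of *Ppif*.

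*Malat1* and *Neat1* are neighbouring, very abundant nuclear RNAs. *Malat1* gathers in nuclear speckles, where splicing factors are stored, and *Neat1* is the scaffold of paraspeckles, bodies that hold RNA-binding proteins, and rises in many cell types under low oxygen. *Pvt1* lies beside the *Myc* oncogene and is often amplified with it. *Kcnq1ot1*, *H19* and *Meg3* are expressed from a single parental chromosome in imprinted domains. *Kcnq1ot1* silences neighbouring genes in cis, and *H19* is most active in embryonic and placental tissue.

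*Malat1* and the long form of *Neat1* end in an unusual way, and these ends are shown because they set what a library must keep for both RNAs to be measured. Their 3′ ends are not formed by polyadenylation but by cleavage before a tRNA-like fold, and are protected by a triple helix of U-rich and A-rich stretches. The windows below are from the genome build GRCm39, on the minus strand of chromosome 19, chr19:5845994-5846103 for *Malat1* and chr19:5874726-5874835 for *Neat1*, written 5′ to 3′. Capitals mark the 3 exact runs of 12 or more bases that both share in these windows.
Malat1: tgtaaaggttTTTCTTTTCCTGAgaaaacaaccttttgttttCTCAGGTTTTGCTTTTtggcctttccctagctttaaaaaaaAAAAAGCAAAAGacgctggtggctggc
Neat1: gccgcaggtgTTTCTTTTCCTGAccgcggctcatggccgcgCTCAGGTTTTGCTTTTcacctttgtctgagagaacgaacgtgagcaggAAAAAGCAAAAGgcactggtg
The 3 runs, of 13, 16 and 12 bases, stand in the same order in both genes, and the run of 16 bases has 2 exact copies on chromosome 19, these 2. The longest runs the genes share lie elsewhere, with 29 and 27 bases, and have 436 and 941 exact copies on that chromosome, so they are repeats. Reads inside those repeats match many places.

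Levels of the 4 detected genes were compared as log2(TPM + 1) with limma over the 13526 genes that reached 1 TPM in 2 or more libraries, with a mean for each of the 4 groups and Benjamini-Hochberg adjustment. The log scale with 1 TPM added understates changes of genes near or below 1 TPM. In this test the share of all genes past an adjusted p of 0.05 was 48.4% for CypD KO minus WT (30.1% higher and 18.4% lower) and 37.4% for CypD OE minus Control (19% higher and 18.3% lower), so a call alone sets no gene apart. Rescaling by median of ratios turned the split of 4066 higher and 2486 lower genes in CypD KO into 3204 and 3481. With 2 libraries a group, exact permutation gives no two-sided p under 0.333. Whether the libraries of a group came from separate cultures is not stated, so p-values measure the spread between these libraries, which may be technical.

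**Figure D1:**
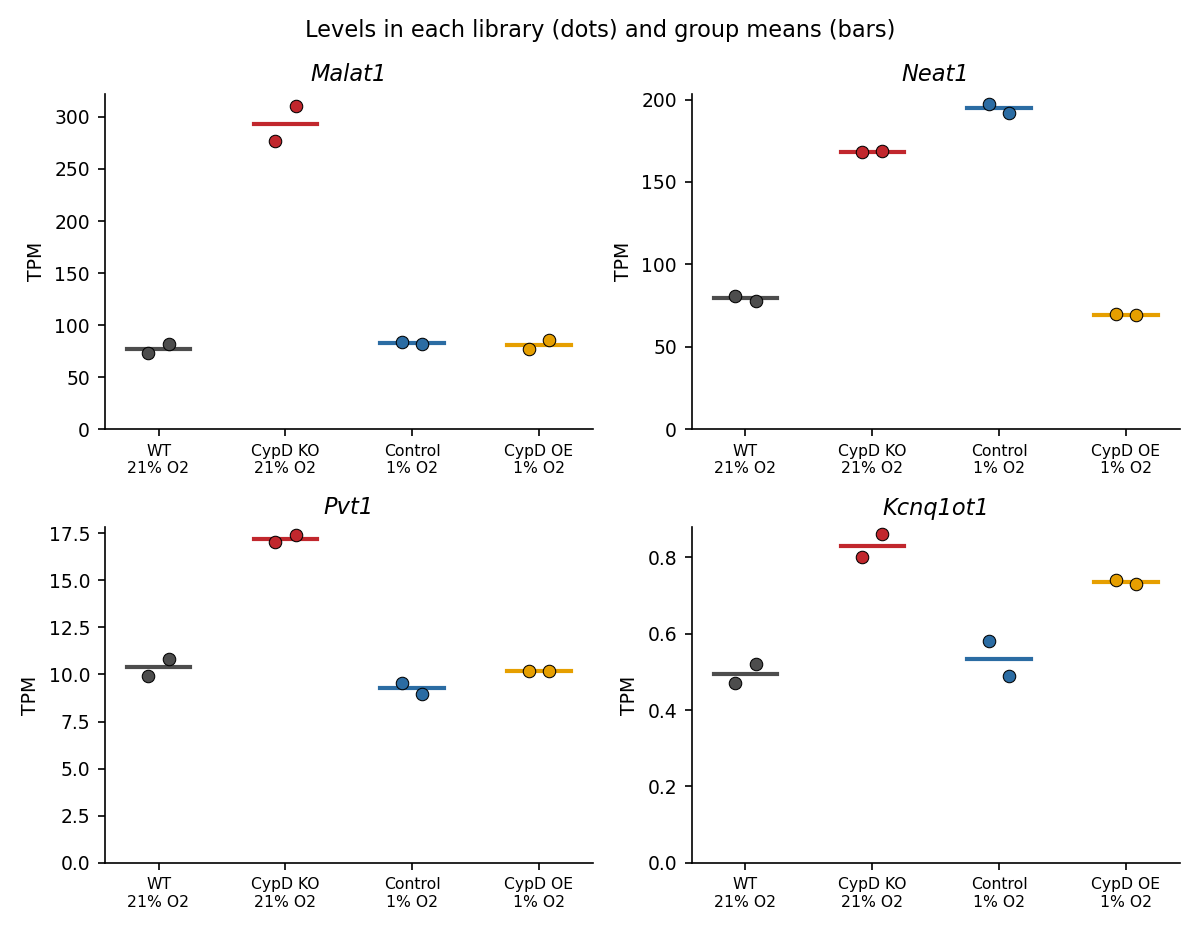
TPM of the 4 detected genes in each library (dots) with group means (bars), each panel with its own axis from 0. *Malat1* and *Pvt1* were high in CypD KO alone, with 276 and 311 TPM for *Malat1*, while *Neat1* was high in CypD KO and in Control.

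*Malat1* (ENSMUSG00000092341; chromosome 19, 5845717 to 5853602, minus strand of GRCm39, 23 annotated transcripts of up to 7886 bases) was higher in CypD KO than in any other group. It stood at 73.2 and 81.9 TPM in WT against 276 and 311 TPM in CypD KO libraries, at 84.0 and 82.1 TPM in Control, with 77.3 and 85.3 TPM for CypD OE. Both CypD KO libraries lay far above the other 6, whose values lay close together. The CypD KO mean of 293.5 ± 24.2 TPM (SD, n = 2) was 3.79 times the WT mean of 77.5 ± 6.12 TPM (SD, n = 2), a log2 difference of 1.91 (standard error 0.08, limma adjusted p = 7.18e-06). At 1% oxygen the log2 difference between CypD OE and Control was -0.03 (standard error 0.08, limma adjusted p = 0.788), with overlapping libraries. From lowest to highest the group means ran WT, CypD OE, Control and CypD KO. Among the lower 3, no pair differed past the threshold. Control minus WT was 0.10 (limma adjusted p = 0.411) and CypD OE minus WT 0.07 (limma adjusted p = 0.578), in comparisons that called 24.2% and 27.7% of all genes. CypD KO was above Control by 1.81 and above CypD OE by 1.84 on the log2 scale (limma adjusted p = 1.05e-05 and 7.64e-06), in comparisons that called 44% and 48.9% of genes. These last 4 comparisons share their libraries with the main ones. RNA was pooled over a culture, so more cells with *Malat1* and more *Malat1* per cell cannot be told apart.

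*Gm37376*, annotated on the opposite strand inside *Malat1* (5851969 to 5852421), was at 29.0 and 24.6 TPM in WT, 106 and 171 TPM in CypD KO, 35.7 and 38.0 TPM in Control, and 31.1 and 44.4 TPM in CypD OE libraries. It was thus highest where *Malat1* was, and the CypD KO libraries differed more from each other than they did for *Malat1*. Whether counting used the strand is not stated, so reads of the pair cannot be told apart, and the repeat of 29 bases shared with *Neat1* (5852070 to 5852098) lies within *Gm37376*.

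The promoter of *Malat1* is shown for the motif of a hypoxia factor, whose target genes are described further on. It is the RefSeq window of 250 bases before to 50 after the start on the minus strand, chr19:5802623-5802922 of GRCm38.p6, and capitals mark the core of the binding motif of the hypoxia-inducible factor HIF, searched as ACGTG or GCGTG on both strands.
Malat1 promoter: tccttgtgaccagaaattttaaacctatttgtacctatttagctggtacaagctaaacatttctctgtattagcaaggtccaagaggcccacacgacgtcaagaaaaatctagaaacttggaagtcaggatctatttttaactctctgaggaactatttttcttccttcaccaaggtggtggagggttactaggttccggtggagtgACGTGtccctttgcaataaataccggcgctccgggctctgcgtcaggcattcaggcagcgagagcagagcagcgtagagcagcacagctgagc
The core was found once, at positions 208 to 212 of the window. Of all 32851 windows of this length, 43.8% hold it, and the *Kcnq1ot1* window holds 2 matches, so its presence is a description and no site of binding. *Neat1*, *H19* and *Pvt1* had no window in the promoter table.

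*Neat1* (ENSMUSG00000092274; chromosome 19, 5874736 to 5897132, minus strand, 24 annotated transcripts of up to 22397 bases), which lies 21.1 kb from *Malat1*, followed another pattern. It was at 81.0 and 77.9 TPM in WT against 168 and 169 TPM in CypD KO libraries, and at 197 and 192 TPM in Control against 69.9 and 69.03 TPM for CypD OE. No groups overlapped, and CypD KO and Control formed a high pair well above WT and CypD OE. The CypD KO mean was 2.12 times the WT mean, a log2 difference of 1.07 (standard error 0.04, limma adjusted p = 3.00e-06). The Control mean was 2.8 times the CypD OE mean, and CypD OE minus Control was -1.47 (standard error 0.04, limma adjusted p = 1.21e-06). In order the means were 69.5 ± 0.629 TPM in CypD OE, 79.5 ± 2.21 TPM in WT, 168.4 ± 0.113 TPM in CypD KO and 194.6 ± 3.69 TPM in Control (SD, n = 2 each). The small steps within the low and within the high pair also passed the test, with CypD OE minus WT at -0.19 (limma adjusted p = 0.00853) and CypD KO minus Control at -0.21 (limma adjusted p = 0.0033). Control minus WT was 1.28 and CypD KO minus CypD OE 1.27 (limma adjusted p = 4.35e-06 and 1.41e-06). The short and long forms of *Neat1*, of which the long form builds paraspeckles, are joined in these values.

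The ratio of *Neat1* to *Malat1* within a library does not depend on how libraries are scaled. It was 1.11 and 0.952 in WT, 0.609 and 0.543 in CypD KO, 2.35 and 2.34 in Control, and 0.905 and 0.81 in CypD OE libraries. *Neat1* was the more abundant per length in Control, and *Malat1* in CypD KO and CypD OE. The WT libraries lay on either side of 1.

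**Figure D2:**
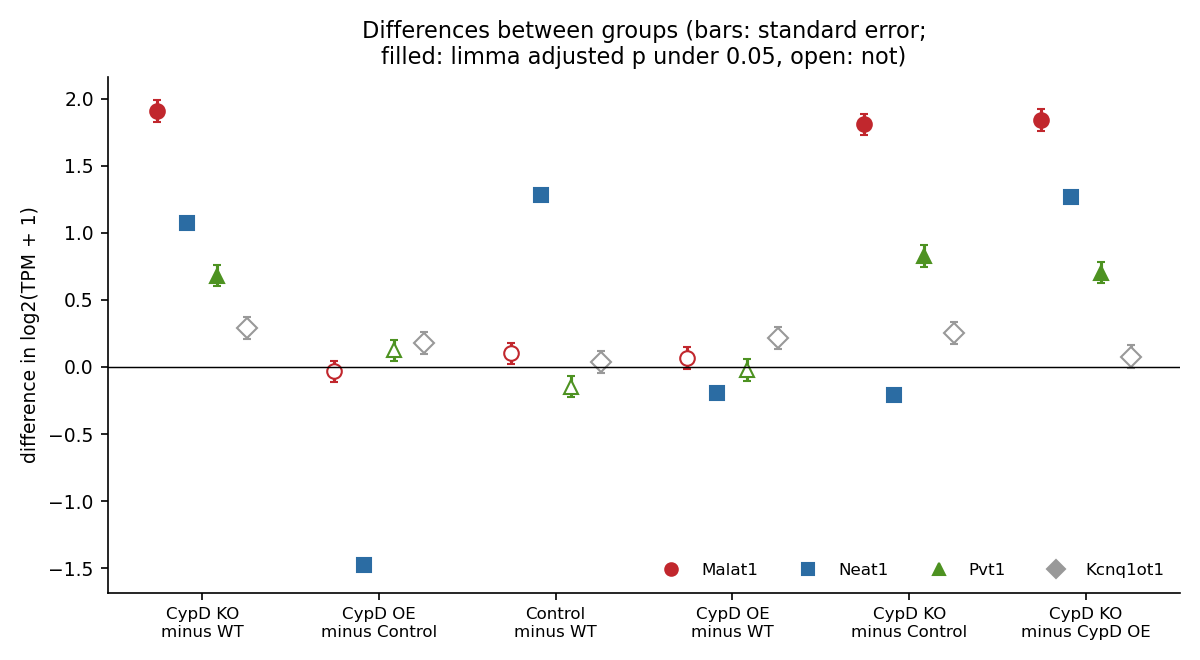
Differences in log2(TPM + 1) between groups for the 4 detected genes in 6 comparisons, with standard errors, filled where the limma adjusted p was under 0.05; *Kcnq1ot1* comes from the fit without a filter on low TPM. In CypD OE minus Control *Neat1* alone was called (-1.47), and in CypD KO minus WT *Malat1* (1.91), *Neat1* (1.07) and *Pvt1* (0.68) were.

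Genes of the hypoxia response were set beside *Neat1*, from a list of 10 targets of HIF. In CypD KO, 8 of the 10 were higher than in WT and 1 was lower, with a median log2 difference of 2.18 against 0.09 over all genes. In CypD OE, 9 were lower than in Control and 0 higher, with a median of -2.11 against 0.002 over all genes. Of all genes, 30.1% were higher and 18.4% lower in CypD KO, and 19% and 18.3% in CypD OE. *Bnip3*, a mitophagy receptor, was at 14.4 and 11.1 TPM in WT, 258 and 249 TPM in CypD KO, 311 and 307 TPM in Control and 13.6 and 12.5 TPM in CypD OE libraries. Its levels had the same high and low pairs of groups as *Neat1*, without overlap between the pairs. *Vegfa*, the angiogenic growth factor, was at 14.0 and 12.6, 76.5 and 77.9, 58.8 and 58.3, and 14.9 and 15.1 TPM in the same order, again with CypD KO and Control high. *Pdk1* encodes a kinase that inhibits pyruvate dehydrogenase, and *Adm* a vasoactive peptide. They changed in CypD KO by 2.92 and 3.25 and in CypD OE by -4.26 and -3.89 on the log2 scale, each past the limma threshold. The exceptions were *Ndrg1*, a stress-response gene that was lower in CypD KO by -0.22 (limma adjusted p = 0.0112) and in CypD OE by -1.25 (limma adjusted p = 1.06e-05), and *Pfkfb3*, a regulator of glycolysis, at 0.07 and 0.17 (limma adjusted p = 0.626 and 0.265). *Malat1*, in contrast, stayed at 82.1 and 84.0 TPM in Control, where *Bnip3* was highest.

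**Figure D3:**
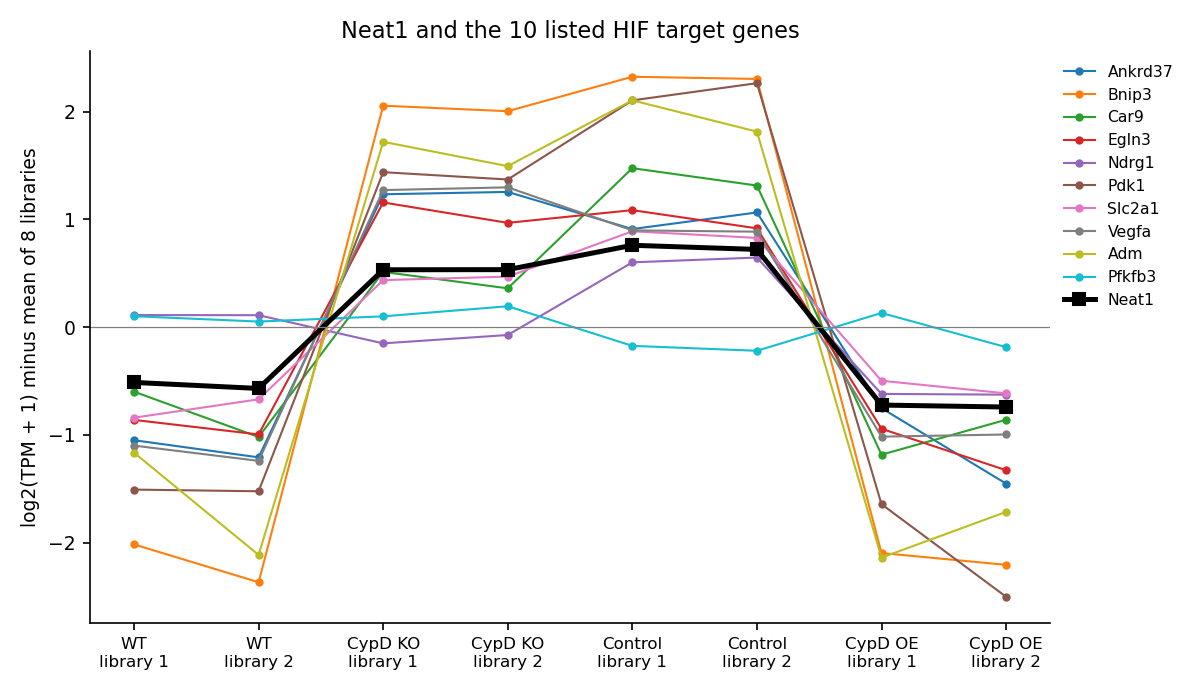
log2(TPM + 1) of *Neat1* (thick black line) and the 10 listed HIF target genes in each of the 8 libraries, each gene centred on its own mean. *Neat1* and most of the targets were above their mean in the CypD KO and Control libraries and below it in WT and CypD OE libraries, with *Pfkfb3* flat and *Ndrg1* high in Control alone.

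By the smallest root mean square difference between centred log2(TPM + 1) values over the 8 libraries, the genes most like *Neat1* were *Bsg* (0.0663), *Plod2* (0.0684) and *Gys1* (0.0809). *Bsg* encodes basigin, a partner of lactate transporters, *Plod2* a collagen lysyl hydroxylase, and *Gys1* a glycogen synthase. *Plod2* was at 88.3 and 94.2 TPM in WT, 194 and 191 TPM in CypD KO, 234 and 236 TPM in Control, and 90.1 and 80.6 TPM in CypD OE libraries, with the order of group means of *Neat1*, though its WT and CypD OE libraries overlapped. For *Malat1* the most similar genes were *S100a11*, a calcium-binding protein (0.0858), *Clec2d*, a lectin-like membrane protein (0.0965), and *Irgm2*, an interferon-inducible GTPase (0.0996). *S100a11* was at 260 and 282 TPM in WT against 1002 and 1038 TPM in CypD KO libraries, with 299 to 333 TPM in the other 4. *Clec2d* was listed at 0 in all libraries but those of CypD KO, where it was at 2.12 and 2.34 TPM. *Irgm2* was at 3.8 and 4.1 TPM in CypD KO and at 0.17 to 0.28 TPM elsewhere. Both lie near the floor, where adding 1 TPM understates changes, so their likeness to *Malat1* depends on that scale.

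Genes for proteins that share nuclear bodies with *Neat1* and *Malat1* were mostly lower in CypD KO. Of 16 genes for paraspeckle proteins, all tested, 0 were higher and 12 lower in CypD KO, with a median log2 difference of -0.31 against 0.09 over all genes. Of all genes tested, 30.1% were higher and 18.4% lower there. Among the most lowered were *Hnrnpm* (-0.57), *Pspc1* (-0.56) and *Sfpq* (-0.45), all RNA-binding proteins, of which *Sfpq* and *Pspc1* belong to the family at the core of paraspeckles. *Sfpq* was at 604 and 658 TPM in WT against 451 and 474 TPM in CypD KO libraries. *Nono*, the partner of *Sfpq* in that family, was at 452 and 478 TPM in WT against 350 and 350 TPM in CypD KO libraries (limma adjusted p = 1.57e-04). Both were thus lower in each CypD KO library than in either WT library, while *Neat1* was higher there. In CypD OE minus Control, 6 of the 16 were higher and 2 lower (median 0.08), against 19% and 18.3% of all genes. *Cpsf6* (0.39) and *Sfpq* (0.23) rose, while *Nudt21* (-0.48) and *Pspc1* (-0.34) fell. *Cpsf6* and *Nudt21* encode subunits of a cleavage factor that favours the short form of *Neat1*.

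Of 22 genes for nuclear speckle proteins, all tested, 0 were higher and 20 lower in CypD KO than in WT, against 30.1% and 18.4% of all genes. Their median was -0.30 against 0.09 over all genes. *Srsf1*, a splicing factor found in speckles with *Malat1*, was at 605 and 644 TPM in WT, 367 and 387 TPM in CypD KO, 567 and 554 TPM in Control, and 581 and 569 TPM in CypD OE libraries. Its 2 CypD KO libraries lay below all others, the reverse of *Malat1*, with a log2 difference from WT of -0.72 (limma adjusted p = 2.25e-05). The next were *U2af2* (-0.49) and *Prpf8* (-0.44), parts of the splicing machinery, and *Srsf2* (-0.43). *Son* and *Srsf11* were not called. In CypD OE, 8 were higher and 5 lower than in Control (median 0.04), against 19% and 18.3% of all genes. The largest changes were those of *Srrm1* (0.30), *Snrnp70* (0.25), *Hnrnpc* (-0.20) and *Pnn* (-0.20).

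A list of 16 genes covered the machinery that cuts, trims or binds the *Malat1* and *Neat1* ends, such as the RNase P subunits, the tRNA 3′ nuclease *Elac2*, the CCA-adding enzyme *Trnt1* and *Mettl16*, which binds the *Malat1* triple helix. Of 15 tested, 1 was higher (*Pop5*) and 7 lower in CypD KO (median -0.27). In CypD OE, 5 were higher than in Control and 0 lower (median 0.24). Over all genes, 30.1% were higher and 18.4% lower in CypD KO, and 19% and 18.3% in CypD OE. *Trnt1* was at 124 and 128 TPM in WT, 117 and 118 TPM in CypD KO, 89.3 and 92.3 TPM in Control, and 147 and 147 TPM in CypD OE libraries. Control was its lowest group and CypD OE its highest, the opposite of *Neat1*, with a log2 difference of 0.69 (limma adjusted p = 2.76e-05). *Elac2* rose by 0.41 in CypD OE (limma adjusted p = 0.00478), and the RNase P subunit *Pop1* was lower in CypD KO by -0.56 (limma adjusted p = 1.81e-04). After rescaling by median of ratios, 0 genes of this list were higher and 10 lower in CypD KO.

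**Figure D4:**
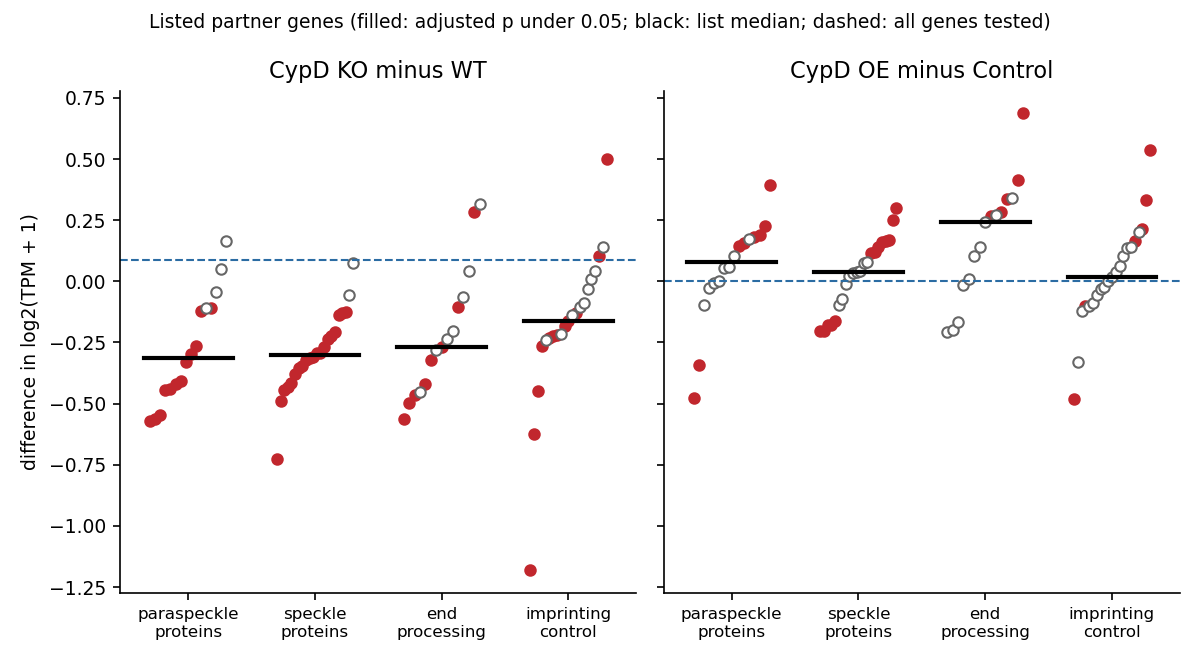
Differences in log2(TPM + 1) of the tested genes of 4 lists, in CypD KO minus WT (left) and CypD OE minus Control (right), filled where the limma adjusted p was under 0.05, with list medians in black and the median of all genes dashed. In CypD KO the medians were -0.31 for paraspeckle, -0.30 for speckle, -0.27 for end-processing and -0.16 for imprinting-control genes, all below the median of all genes of 0.09.

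*Pvt1* (ENSMUSG00000097039; chromosome 15, 61888639 to 62249945, plus strand, 555 annotated transcripts of up to 3319 bases) was at 9.93 and 10.8 TPM in WT against 17.03 and 17.4 TPM in CypD KO libraries. It was at 9.57 and 8.98 TPM in Control compared with 10.2 and 10.2 TPM for CypD OE. As with *Malat1*, both CypD KO libraries stood above all others, which ranged from 8.98 to 10.8 TPM. The CypD KO mean was 1.66 times the WT mean, a log2 difference of 0.68 (standard error 0.08, limma adjusted p = 5.19e-04). CypD OE minus Control was 0.12 (standard error 0.08, limma adjusted p = 0.262), below the threshold although the libraries did not overlap. The order of means was Control, CypD OE, WT and CypD KO, of which the lower 3 did not differ in pairs past the threshold (Control minus WT -0.15, limma adjusted p = 0.225, and CypD OE minus WT -0.02, limma adjusted p = 0.863). CypD KO was above Control by 0.83 and above CypD OE by 0.70 (limma adjusted p = 2.51e-04 and 4.39e-04). *Gm54427*, a small RNA annotated on the same strand inside *Pvt1* (61909878 to 61910050), was at 3.58 and 6.57 TPM in WT and 8.63 and 9.43 TPM in CypD KO libraries. In Control it was at 17.3 and 8.74 TPM and in CypD OE at 2.98 and 2.56 TPM (log2 difference -1.83, limma adjusted p = 0.00555). This gene is shorter than the estimated fragment length of 198 to 204 bases, so its values may rest on few fragments. Whether its pattern differs from that of *Pvt1* was not tested.

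*Myc*, the transcription factor gene 26.4 kb from *Pvt1*, was at 99.1 and 93.4 TPM in WT, 45.5 and 44.4 TPM in CypD KO, 71.1 and 74.8 TPM in Control, and 125 and 122 TPM in CypD OE libraries. It fell where *Pvt1* rose, by -1.08 in CypD KO (limma adjusted p = 8.46e-06), and was higher in CypD OE than in Control by 0.75 (limma adjusted p = 6.39e-05), where *Pvt1* was not called. Of 9 genes found for the *Pvt1* and *Myc* region, 5 were tested. In CypD KO 2 were higher and 3 lower, and in CypD OE 1 was higher and 3 lower. These comparisons called 48.4% and 37.4% of all genes. *Gsdmc*, a pore-forming gasdermin, was at 52.4 and 53.9 TPM in WT against 28.9 and 30.2 TPM in CypD KO libraries, and *Asap1*, a regulator of the cytoskeleton, was higher there by 0.44. The genes most like *Pvt1* over the 8 libraries were *Rnf141*, a RING-finger protein (0.0539), *Gask1b*, a Golgi-associated protein (0.054), and *Pls3*, an actin-bundling plastin (0.0568).

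**Figure D5:**
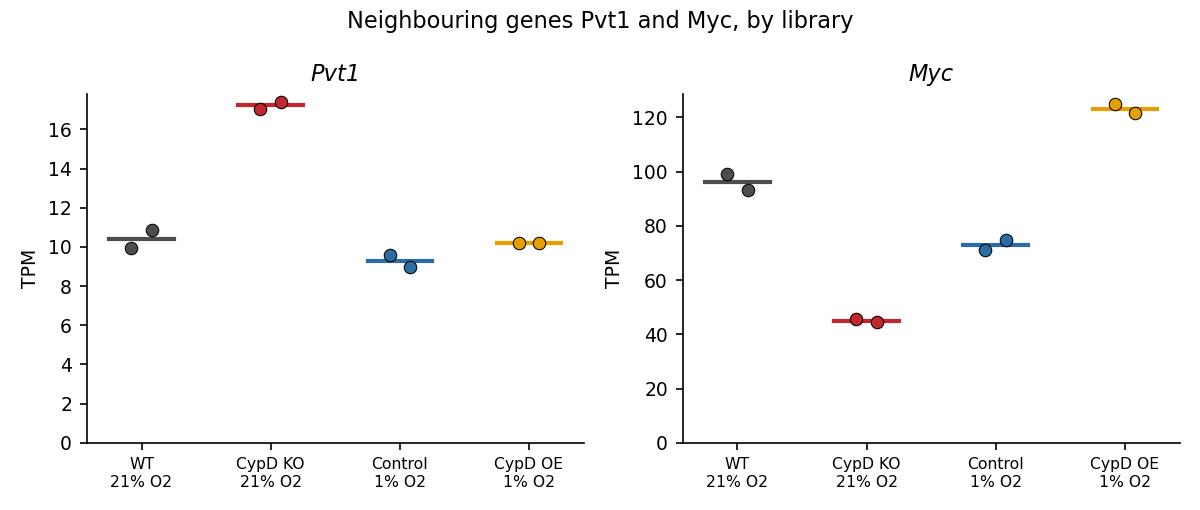
TPM of *Pvt1* and of its neighbour *Myc* in each library (dots) with group means (bars), on separate axes from 0. In CypD KO *Pvt1* was at its highest (17.03 and 17.4 TPM) and *Myc* at its lowest (45.5 and 44.4 TPM).

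*Kcnq1ot1* (ENSMUSG00000101609; chromosome 7, 142731402 to 142850327, minus strand, 8 annotated transcripts of up to 93092 bases) was below 1 TPM in every library and therefore not among the 13526 genes. It was at 0.47 and 0.52 TPM in WT, 0.8 and 0.86 TPM in CypD KO, 0.58 and 0.49 TPM in Control, and 0.74 and 0.73 TPM for CypD OE. CypD KO did not overlap WT and CypD OE did not overlap Control, with ratios of the means of 1.68 and 1.37. In a fit of the 24706 genes above 0 in at least 1 library, which called 25.6% of genes in CypD KO minus WT and 18.1% in CypD OE minus Control, the log2 differences were 0.29 (standard error 0.08, limma adjusted p = 0.0544) and 0.18 (standard error 0.08, limma adjusted p = 0.246). Neither passed the threshold, although the first did without CypD KO replicate 1 (0.32, limma adjusted p = 0.0307), without CypD KO replicate 2 (0.27, limma adjusted p = 0.0439) and without a trend in the prior (limma adjusted p = 0.00838). With a CypD KO library left out, the remaining one is assumed to vary like the other groups. The order of means was WT, Control, CypD OE and CypD KO, and no pair of groups differed past the threshold in that fit.

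*Kcnq1*, the potassium channel gene in which *Kcnq1ot1* lies antisense, was listed at 0 in all libraries. Of 14 genes of its domain, 3 were at 0 in every library and 9 were tested, with 4 higher and 1 lower in CypD KO, and 0 higher and 2 lower in CypD OE. These comparisons called 48.4% and 37.4% of all genes, so the counts do not set the domain apart. *Phlda2*, a maternally expressed growth regulator, was at 1.46 and 1.21 TPM in WT against 4.01 and 4.09 TPM in CypD KO libraries, with 1.12 and 1.14 TPM in Control and 0 and 0.29 TPM in CypD OE libraries. It was called in both comparisons (1.11, limma adjusted p = 0.00209, and -0.91, limma adjusted p = 0.00723). *Cd81*, a tetraspanin, was at 167 and 169 TPM in WT against 317 and 308 TPM in CypD KO libraries (limma adjusted p = 2.09e-05), and *Osbpl5*, a lipid transfer protein, was higher there by 0.75. *Cdkn1c*, a cell cycle inhibitor of the domain, was between 0.23 and 1.46 TPM and not called in either comparison. Within 500 kb of *Kcnq1ot1*, 6 of 13 tested genes were higher and 1 lower in CypD KO, against 30.1% and 18.4% of all genes.

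*H19* (ENSMUSG00000000031; chromosome 7, 142129262 to 142133957) and *Meg3* (ENSMUSG00000021268; chromosome 12, 109506877 to 109538165) were listed at 0 TPM in all 8 libraries. The 10 housekeeping genes looked at beside them were above 0 in every library. From the steps between low values, 1 fragment on 1000 effective bases was worth 0.082 to 0.0975 TPM, so 3 fragments on the longest *H19* transcript of 2623 bases would have given 0.102 to 0.121 TPM, a limit that covers counting error only. The microRNA genes within them, *Mir675* in *H19* and *Mir770* and *Mir1906-1* in *Meg3*, were also listed at 0. They are shorter than the estimated fragment length of 198 to 204 bases, so 0 was likely in any case and adds nothing on *H19* or *Meg3*. *Igf2*, the growth factor gene of the *H19* domain, was at most at 0.11 TPM. In the *Meg3* domain *Dlk1*, *Rtl1* and *Dio3* were listed at 0 and the noncoding *Rian* and *Mirg* reached 0.16 and 0.18 TPM, so that these genes of both domains were at or near 0 in every group.

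Some other genes of these domains and pathways were called, where 48.4% of all genes were called in CypD KO and 37.4% in CypD OE. On the *H19* and *Igf2* list, which includes receptors and mRNA-binding proteins of the Igf2 pathway, 8 of 15 were tested, with 5 higher and 2 lower in CypD KO and 4 higher and 2 lower in CypD OE. *Igf2bp3*, which binds *Igf2* mRNA, was at 6.23 and 6.62 TPM in WT, 4.46 and 3.63 TPM in CypD KO, 2.31 and 3.33 TPM in Control, and 9.64 and 9.83 TPM in CypD OE libraries. It was lowest in Control and highest in CypD OE (log2 difference 1.5, limma adjusted p = 5.06e-04). *Lsp1*, a leukocyte actin-binding protein gene 80.7 kb from *H19*, was at 1.05 and 0.91 TPM in WT against 3.32 and 7.96 TPM in CypD KO libraries. On the *Dlk1* and *Meg3* list, 6 of 13 were tested, with 0 higher and 3 lower in CypD KO and 1 higher and 3 lower in CypD OE.

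Of 27 other imprinted genes in the table, 10 were listed at 0 throughout and 12 were tested. Of the 12, 5 were higher and 2 lower in CypD KO, against 30.1% and 18.4% of all genes. In CypD OE, 3 were higher and 2 lower, against 19% and 18.3% of all genes. *Mest*, a paternally expressed hydrolase gene, was at 60.9 and 57.7 TPM in WT, 9.51 and 8.71 TPM in CypD KO, 21.7 and 21.6 TPM in Control, and 112 and 113 TPM in CypD OE libraries. It was lower in CypD KO by -2.58 and higher in CypD OE by 2.32 (limma adjusted p = 1.10e-06 and 1.44e-06). *Peg10*, a gene derived from a retrotransposon, was at 131 and 136 TPM in WT, 57.7 and 58.9 TPM in CypD KO, 58.1 and 55.4 TPM in Control, and 111 and 114 TPM in CypD OE libraries. These 2 genes were low in the groups in which *Neat1* was high. *Sgce*, which shares its promoter region with *Peg10*, was higher in CypD KO by 0.98 (limma adjusted p = 1.90e-05). *Peg13*, a noncoding RNA, was at 5.55 to 7.31 TPM in the other groups and listed at 0 in both CypD OE libraries, while *Trappc9*, the gene that holds it, was at 5.19 and 5.53 TPM in Control compared with 5.27 and 5.12 TPM in CypD OE libraries.

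Of 24 genes that keep or read imprints, 21 were tested. In CypD KO 2 were higher and 10 lower (median -0.16), against 30.1% and 18.4% of all genes. In CypD OE 4 were higher and 2 lower (median 0.02), against 19% and 18.3% of all genes. *Dnmt3b*, a de novo DNA methyltransferase, was at 5.9 and 5.63 TPM in WT against 1.95 and 2.02 TPM in CypD KO libraries, a log2 difference of -1.18 (limma adjusted p = 3.59e-04). *Trim28*, the corepressor that maintains imprints, was at 443 and 475 TPM in WT against 307 and 289 TPM in CypD KO libraries. *Ezh2*, the methyltransferase of Polycomb, was higher in CypD OE by 0.54 (limma adjusted p = 7.25e-05).

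The 6 genes were also set against other noncoding RNAs, a class chosen after values had been seen. Of 884 lncRNAs tested, 201 were higher and 61 lower in CypD KO, with a median of 0.23 against 0.09 over all genes. This was 29.6% called, against 48.4% of all genes. In CypD OE 79 were higher and 102 lower, with a median of -0.07, or 20.5% called against 37.4% of all genes. LncRNAs were thus called less often than genes in general. The classes were not matched for abundance, and changes near 1 TPM are understated on this scale. *Pvt1*, with a mean of 11.8 TPM, ranked 75 of 3710 lncRNAs above 0 but 8024 of 24706 genes above 0. The part of abundance in the lower share was not tested. On a list of 30 well-known lncRNAs, 22 were tested, with 6 higher and 4 lower in CypD KO, and 8 higher and 2 lower in CypD OE. *Mir22hg*, the host of miR-22, was at 9.52 and 10.2 TPM in WT, 30.8 and 33.5 TPM in CypD KO, 6.79 and 10.2 TPM in Control, and 12.2 and 8.27 TPM in CypD OE libraries. As for *Malat1* and *Pvt1*, only its CypD KO libraries stood apart (log2 difference 1.61, limma adjusted p = 9.48e-04). *Mir155hg*, the host of miR-155, was at 1.13 and 1.12 TPM in CypD KO and at most at 0.23 TPM elsewhere. In CypD OE minus Control the largest changes past the threshold were those of the small nucleolar RNA hosts *Snhg5* (0.99), *Zfas1* (0.75) and *Snhg1* (0.71). *Snhg5* was at 61.0 and 60.2 TPM in WT, 48.4 and 44.2 TPM in CypD KO, 28.1 and 27.8 TPM in Control, and 53.2 and 59.7 TPM in CypD OE libraries, lowest in the group in which *Neat1* was highest.

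The genes around *Malat1* and *Neat1* were called in both directions, as were genes in general. Within 500 kb of *Neat1*, 20 of 55 tested genes were higher and 8 lower in CypD KO, against 30.1% and 18.4% of all genes. Their median was 0.13 against 0.09 over all genes. In CypD OE, 9 were higher and 6 lower, against 19% and 18.3% of all genes. *Frmd8*, a membrane-associated protein gene 2.6 kb from *Neat1*, was at 14.5 and 13.4 TPM in WT, 22.3 and 21.8 TPM in CypD KO, 12.4 and 14.4 TPM in Control, and 12.6 and 15.2 TPM in CypD OE libraries. It was high in CypD KO alone (log2 difference 0.63, limma adjusted p = 0.00326) and so resembled *Malat1* more than *Neat1*.

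Features of whole libraries that moved with CypD KO stand beside these results. CypD KO libraries had the most genes above 0, 19692 and 19456 against 17942 to 18335 in the others, and the largest share of TPM in lncRNAs, 0.861% and 0.885% against 0.75% to 0.809%. The 10 melanocyte markers summed to 12830 to 21480 TPM in every library, as the cell line's label implies, and the sum was lowest in CypD KO, where 2 of the 10 were higher and 7 lower than in WT, with *Tyr* higher by 1.97. Of 10 fibroblast markers, 2 were higher and 2 lower in CypD KO, and their sum was 76.8 TPM in both CypD KO libraries against 11.2 to 26.1 TPM elsewhere, while *Dcn* and *Thy1* were listed at 0. Of 10 further markers, mostly immune and endothelial, *Cd68* and *Ncam1* were higher in CypD KO. The sum of the 10 was 79.5 and 79.2 TPM there against 13.3 to 26.4 TPM elsewhere. Most of it was *Ncam1*, at 56.3 and 55.1 TPM in CypD KO against 8.72 and 10.6 TPM in WT libraries. *Adgre1*, *Cd3e*, *Cdh5* and *Epcam* were listed at 0 and *Ptprc* was at most at 0.02 TPM. Beside these marker counts, 30.1% of all genes were higher and 18.4% lower in CypD KO. The part of these features in the *Malat1* and *Pvt1* results was not tested.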

How the data were processed

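Per the labels and the study's methods, the authors removed ribosomal RNA, sequenced 150-base read pairs, trimmed with Cutadapt 3.4, used STAR 2.7.8a to align to the Ensembl build GRCm39, and ran RSEM 1.3.1. In each library the TPM deposited by the authors sum to the same total and have 2 decimals; their own tests used DESeq2 1.26.0 on counts, which were not used here, and the strand setting is not given in the sources used here. TPM holds no total count, so depth was read from the steps between low values of genes with a single transcript, of which 83% to 85.6% lay within 0.15 of whole fragments.

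log2(TPM + 1) was fitted with limma 3.58.1 in R 4.3.3 (a mean for each of 4 groups, eBayes with trend, two-sided, Benjamini-Hochberg), for genes that reached 1 TPM in 2 or more of 8 libraries, and was tested on simulated data. Python 3.11.15 made the rest. Members and lists were chosen with earlier results of these data known. All 6 members are named, list genes by the largest differences (up to 4 a list) or by role, and the 3 most similar genes for each member called. Positions come from GENCODE for GRCm39. Replicate numbers come from the library names. Alternatives were a pseudocount of 0.1, no filter, a filter of 5 TPM, median-of-ratios and protein-coding rescaling, 4-library fits, a replicate block, no trend, and leaving out each library. Those of *Kcnq1ot1*, applied to the fit without a filter, were added after seeing the data. Some genes that this rule would name are not reported here.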

Additional observations from a re-analysis of the deposited data

How the results depend on the processing

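Of 276 differences of *Malat1*, *Neat1*, *Pvt1* and *Kcnq1ot1* recomputed under an alternative, 270 kept their side of the threshold and, where called, their direction, and the other 6, all of *Kcnq1ot1*, passed it only in the alternative. Of 72 recomputed counts of genes called, 64 stayed within 1.5 times the count given. *Malat1* in CypD KO minus WT ranged from 1.79 to 1.99 and *Neat1* from 0.96 to 1.10, while *Neat1* in CypD OE minus Control ranged from -1.49 to -1.45 and *Pvt1* in CypD KO minus WT from 0.57 to 0.74. The genes called in Control minus WT fell from 3269 to 1981 with the 4 libraries of that comparison alone and to 2009 to 2109 without 1 library, and those in CypD OE minus WT from 3744 to 2295 to 2532 without 1 library; fewer libraries entered these fits. *Kcnq1ot1* in CypD KO minus WT was 0.29 and passed the threshold with eBayes without trend (limma adjusted p = 0.00838), and without 1 library it was 0.27 to 0.32 (limma adjusted p 0.0307 to 0.101); the cause was not tested. With a pseudocount of 0.1 it was 0.64 (limma adjusted p = 0.203). In CypD OE minus WT and CypD KO minus Control it passed without trend (0.22 and 0.25), and in the latter without CypD KO replicate 1 (0.28). Under the replicate block, limma gave adjusted p-values of 1.97e-05 for *Malat1*, 2.52e-05 for *Neat1* and 0.00168 for *Pvt1* in CypD KO minus WT, 6285 genes were called, and no member's call changed. Deviations of libraries with the same number had correlations of 0.108 (CypD KO and WT) and -0.00175 (CypD OE and Control). The labels do not say whether such libraries shared a culture or run, and these correlations cannot settle it. Depth limits *H19* and *Meg3*, listed at 0.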
